A study of Mus musculus with 6 samples.

Results

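Endothelial cells rich in Fabp4, the gene of a fatty acid-binding protein of fat cells and of capillaries that take up fatty acids, were examined in the embryonic mouse lung. A cell was a member when it held at least 10 unique molecular identifiers (UMIs, each standing for 1 captured transcript) of Fabp4, at least 1 of Cd36, Rbp7 and Timp4 together, at least 3 of the endothelial genes Pecam1, Cdh5 and Cldn5 and at most 2 of the collagen genes Col1a1 and Col3a1. In the E15.5 library 379 of 8911 endothelial cells met these limits and in the E18.5 library 356 of 9083, together 735 of 17994. The endothelial cells with 2 or fewer Fabp4 UMIs of the same library, 8299 at E15.5 and 8212 at E18.5, served as the comparison and are called Fabp4-low. The remaining endothelial cells lay between, with 148 and 334 cells at 3 to 9 Fabp4 UMIs and 85 and 181 at 10 or more with none of Cd36, Rbp7 and Timp4.

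The study followed endothelium that expresses Cxcl12, a chemokine made by arterial endothelium among other cells, with droplet single-cell RNA sequencing of lungs. Both libraries came from Cxcl12DsRed/+ animals, in which 1 Cxcl12 allele carries a red reporter, and the lungs of 2 to 4 animals were pooled for each. Reporter-positive, CD31-positive cells without EpCAM or CD45 were sorted, and reporter-positive CD31-negative mesenchymal cells were collected as well, so the sort selected on the Cxcl12 locus. Libraries of the same sort from E13.5 and P8 and of whole E18.5 lungs labelled heterozygous control (Cxcl12DsRed/+) and homozygous null (Cxcl12DsRed/DsRed) were set beside them. There was 1 library per condition, so no test between ages or genotypes could be made. Intervals are exact 95% intervals that cover counting error only.

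The libraries held 63746333 to 117522172 UMIs, and pairs of libraries shared 20 to 140 cell barcodes. The Fabp4-high cells held a median of 8660 UMIs at E15.5 and 8595 at E18.5, against 8461 and 5463 in Fabp4-low cells, so depth differed between the populations at E18.5. In the whole lungs Cxcl12 itself went against the labels. It stood at 1.20 CPM (counts per 1000000 UMIs) in the library labelled control and at 191 CPM in the library labelled null, and no direction is drawn from these labels.

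Capillaries of heart, skeletal muscle and fat take up fatty acids. In them GPIHBP1 holds lipoprotein lipase on the vessel wall, CD36 imports the released fatty acids, FABP4 and FABP5 carry them in the cytoplasm, and the transcription factors MEOX2 and TCF15 drive much of this programme. Alveolar capillaries of the lung belong to the pulmonary circulation and depend on the forkhead factor FOXF1, whereas airways and large vessels are fed by the systemic bronchial circulation.

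As context for 2 of the genes below, the promoters of Meox2, a leading gene of the comparison, and of Rbp7, a gene of the rule, are shown from RefSeq (GRCm38.p6, from 250 bases before to 50 after the start, 5′ to 3′). Capitals mark the ETS core GGAAG, a core motif of endothelial factors, and the TATA box TATAAA, on either strand. Meox2 lies at chr12:37108290-37108589 on the plus strand and Rbp7 at chr4:149454919-149455218 on the minus strand.
Meox2: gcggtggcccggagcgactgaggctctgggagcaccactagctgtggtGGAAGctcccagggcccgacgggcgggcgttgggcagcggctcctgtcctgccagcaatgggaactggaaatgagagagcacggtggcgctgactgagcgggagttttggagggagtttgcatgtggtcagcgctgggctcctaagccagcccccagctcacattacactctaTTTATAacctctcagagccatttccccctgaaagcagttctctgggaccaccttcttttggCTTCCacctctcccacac
Rbp7: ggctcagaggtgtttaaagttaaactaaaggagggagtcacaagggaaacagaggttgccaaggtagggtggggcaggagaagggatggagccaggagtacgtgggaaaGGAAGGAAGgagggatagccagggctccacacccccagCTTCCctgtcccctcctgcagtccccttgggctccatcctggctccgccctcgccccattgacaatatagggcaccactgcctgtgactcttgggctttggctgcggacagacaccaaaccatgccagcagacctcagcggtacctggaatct
The Meox2 window held 2 ETS cores and 1 TATA box, and the Rbp7 window 3 ETS cores and no TATA box. Over 27025 promoters of this length, 71.1% held the ETS core and 14.2% the TATA box on either strand. Promoters were listed for 36 of the 46 genes described below as higher in both libraries, of which 24 (66.7%) held the ETS core and 6 (16.7%) the TATA box. These letters were therefore about as common among those genes as among all promoters.

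The share of Fabp4-high cells was 4.25% (3.84 to 4.69) of endothelial cells at E15.5 and 3.92% (3.53 to 4.34) at E18.5. With the same limits, none of the 168 endothelial cells at E13.5 was Fabp4-high, with an exact interval reaching 2.17%, and 21 of 8291 (0.253%) were at P8. In the whole lungs the limits were met by 283 of 1824 endothelial cells (15.5%, 13.9 to 17.3) in the library labelled control and by 239 of 2721 (8.78%, 7.75 to 9.91) in the library labelled null. The whole lungs were not sorted on the reporter.

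**Figure D1:**
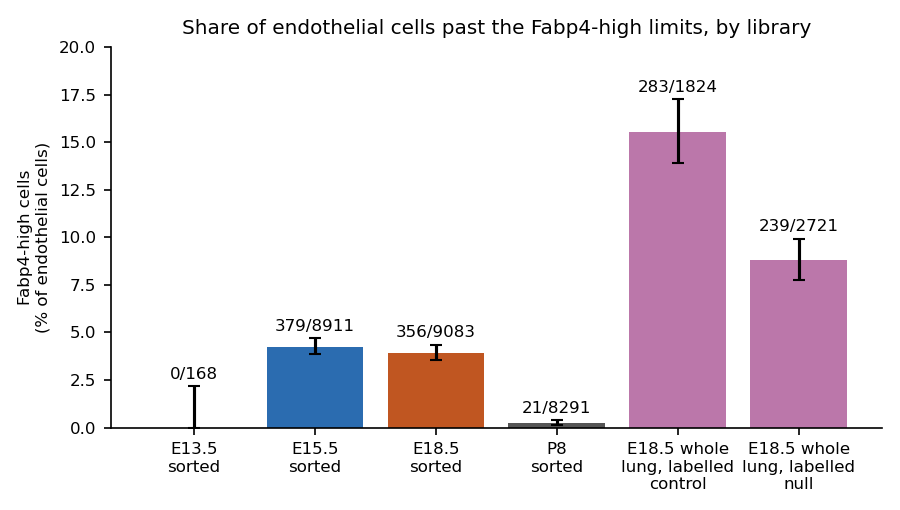
Share of endothelial cells past the Fabp4-high limits (y axis, %) in each of the 6 libraries (x axis), with exact 95% intervals and, above each bar, the cells counted. The sorted E15.5 and E18.5 libraries lie close to each other at 4.25% and 3.92%, P8 is lower at 0.253%, and both whole lungs are higher.

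The genes of the rule are given as a description. Fabp4 (ENSMUSG00000062515, chromosome 3, 10204088 to 10208576 on GRCm38) reached a median of 56 UMIs per member at E15.5 and 30 at E18.5, with a highest value of 713 and 301. Summed over the cells it stood at 7420 CPM against 7.81 in Fabp4-low cells at E15.5, and at 5214 CPM (5137 to 5291) against 12.7 at E18.5. Cells just inside the limit, with 10 to 12 Fabp4 UMIs, numbered 19 and 44, and those just outside, with 7 to 9, numbered 44 and 102. Cd36, a fatty acid importer, was detected in 83.9% and 81.5% of members, Rbp7, a retinol-binding protein of capillaries, in 66.2% and 60.7%, and Timp4, a metalloproteinase inhibitor of heart, in 2.90% and 10.4%. Cd36 stood at 240 CPM in members against 9.47 CPM in Fabp4-low cells at E15.5, but at 316 CPM against 274 CPM at E18.5. Rbp7 stood at 447 against 123 CPM and at 426 against 60.1 CPM. At least 1 Fabp4 UMI was also seen in 20.8% of mesenchymal cells at E15.5 (median 7670 UMIs) and in 34.8% at E18.5 (median 8536 UMIs), and whether it was free RNA or made by those cells was not tested. At E13.5 Fabp4 stood at 23.6 CPM over all kept cells but at 2.57 CPM in the 168 endothelial cells.

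Against Fabp4-low cells, 46 of 7351 genes were at least 2-fold higher in both libraries (0.626%) and 31 were at least 2-fold lower in both (0.422%), leaving out the genes of the rule. In the E15.5 library alone 158 genes were higher (2.06%) and 193 lower (2.52%), and in the E18.5 library alone 157 (1.93%) and 144 (1.77%). A gene was compared when it averaged at least 10 CPM over both populations of each library, and ratios are on the log2(CPM + 0.5) scale. Of the 46 higher genes, 28 were under 10 CPM in Fabp4-low cells of at least 1 library and so passed this limit there through the Fabp4-high cells, and of the 31 lower genes 16 passed it through the Fabp4-low cells. By the weaker of the 2 ratios, the highest genes were Cd300lg, a receptor of capillary and venular endothelium, and Meox2, the homeobox factor of heart and muscle capillaries. Cd300lg, which no list held and which was named after its values were seen, stood at 25.5 CPM in Fabp4-high against 0.343 CPM in Fabp4-low cells at E15.5 and at 67.9 against 1.29 CPM at E18.5, with log2 ratios of 4.95 and 5.26. Meox2 (ENSMUSG00000036144) stood at 68.2 CPM (60.2 to 77.0) against 4.55 CPM at E15.5 and at 35.5 CPM (29.4 to 42.4) against 1.05 CPM at E18.5, with log2 ratios of 3.77 and 4.53. At E18.5 Meox2 also stood at 114 CPM in mesenchymal cells, so it was not particular to endothelium there. Btnl9, a butyrophilin-like gene, stood at 67.4 against 1.81 CPM at E15.5 and at 37.0 against 5.25 CPM at E18.5, so at E15.5 it was above Meox2 in ratio.

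Among the more abundant genes, Fabp5 led. This second fatty acid-binding protein (ENSMUSG00000027533), a neighbour of Fabp4 on chromosome 3 (10012548 to 10016607), stood at 1756 CPM (1715 to 1799) against 247 CPM at E15.5 and at 960 CPM (927 to 994) against 150 CPM at E18.5. Its log2 ratio was 2.83 and 2.68. Igfbp3, which binds insulin-like growth factors, had log2 ratios of 2.34 and 3.33, and Nrp2, a VEGF-C co-receptor of veins and lymphatics, had 2.44 and 2.30. The factors Ebf1 (1.87 and 2.56), Tshz2 (1.69 and 2.49) and Tcf15 (1.27 and 1.16) followed. Aplnr, the apelin receptor of capillaries and veins, had 1.15 and 1.29. Tinagl1, a matrix protein, had 1.18 and 1.21. These genes were chosen by the weaker of their 2 ratios, so their shared direction at both ages was set by that choice. Ebf1 was also abundant in mesenchymal cells, at 298 CPM at E15.5.

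Among genes averaging at least 50 CPM, Scn7a, Gpm6b and Foxf1 were lowest by the weaker of the 2 ratios. Of the 31 lower genes, 6 are on the lung endothelial list described below. Scn7a, a sodium channel, stood at 21.1 CPM (16.7 to 26.2) in Fabp4-high against 173 CPM in Fabp4-low cells at E15.5 and at 355 CPM (335 to 376) against 1250 CPM at E18.5. Foxf1 stood at 11.7 CPM (8.54 to 15.7) against 95.8 CPM at E15.5 and at 111 CPM (99.6 to 122) against 340 CPM at E18.5. The log2 ratios were −3.00 and −1.81 for Scn7a and −2.98 and −1.62 for Foxf1. Foxf1 in Fabp4-high cells at E15.5 was near its 10.6 CPM in mesenchymal cells, whereas at E18.5 it was above the 42.9 CPM there. Tmem100, a target of BMP signalling (−1.51 and −1.38), Calcrl, the adrenomedullin and CGRP receptor (−1.51 and −1.29), and the phospholipid transfer protein gene Pltp (−2.55 and −1.09) were lower as well. Gpm6b, a membrane glycoprotein, had log2 ratios of −2.73 and −1.70, and Gata6, a transcription factor, −1.21 and −0.93. The size rule also named Myzap, Maoa, Pcsk5, Guk1 and Hpgd, whose weaker ratios lay between −1.06 and −0.90. Gata6 is the exception in this group, since against capillary-gated Fabp4-low cells alone its log2 ratio at E15.5 was 0.29. Those cells, which met no arterial, venous, lymphatic, aerocyte or cycling limit, held the most Foxf1, at 140 CPM at E15.5 and 394 CPM at E18.5. In Foxf1 the Fabp4-high cells therefore differed more from them than from all Fabp4-low cells. Against them 109 genes were at least 2-fold higher and 49 lower in both libraries, where only the Fabp4-high side held arterial-gated cells. With arterial-gated members left out, the counts against all Fabp4-low cells were 70 and 88.

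**Figure D2:**
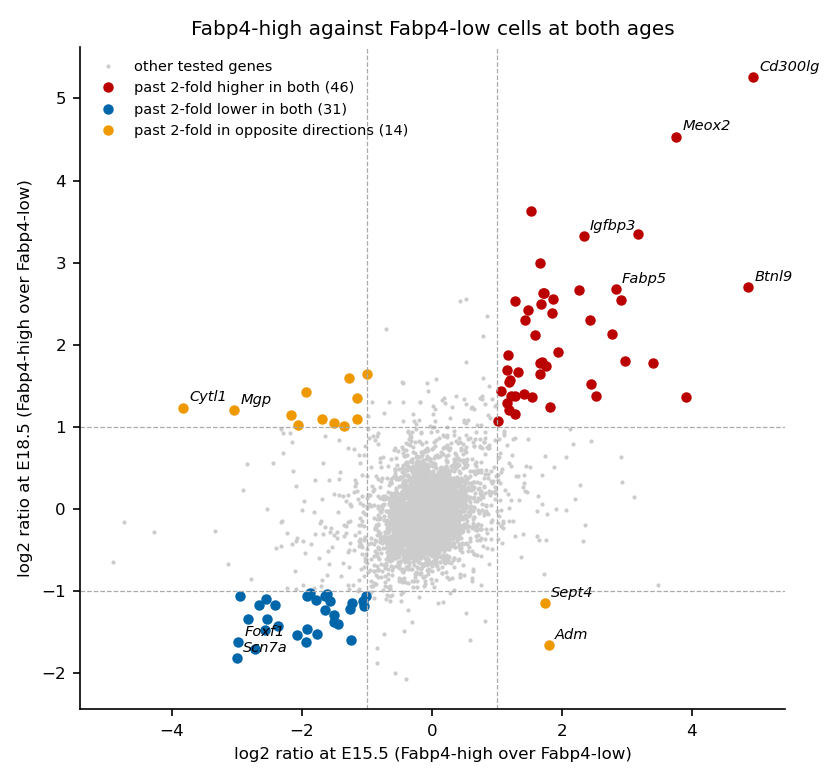
Log2 ratio of each of 7351 genes, Fabp4-high over Fabp4-low cells, at E15.5 (x axis) and E18.5 (y axis), with dashed lines at 2-fold. Cd300lg, Meox2 and Btnl9 lie far into the upper right, Scn7a and Foxf1 into the lower left, and 14 genes are past 2-fold in opposite directions, such as Mgp and Cytl1.

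**Figure D3:**
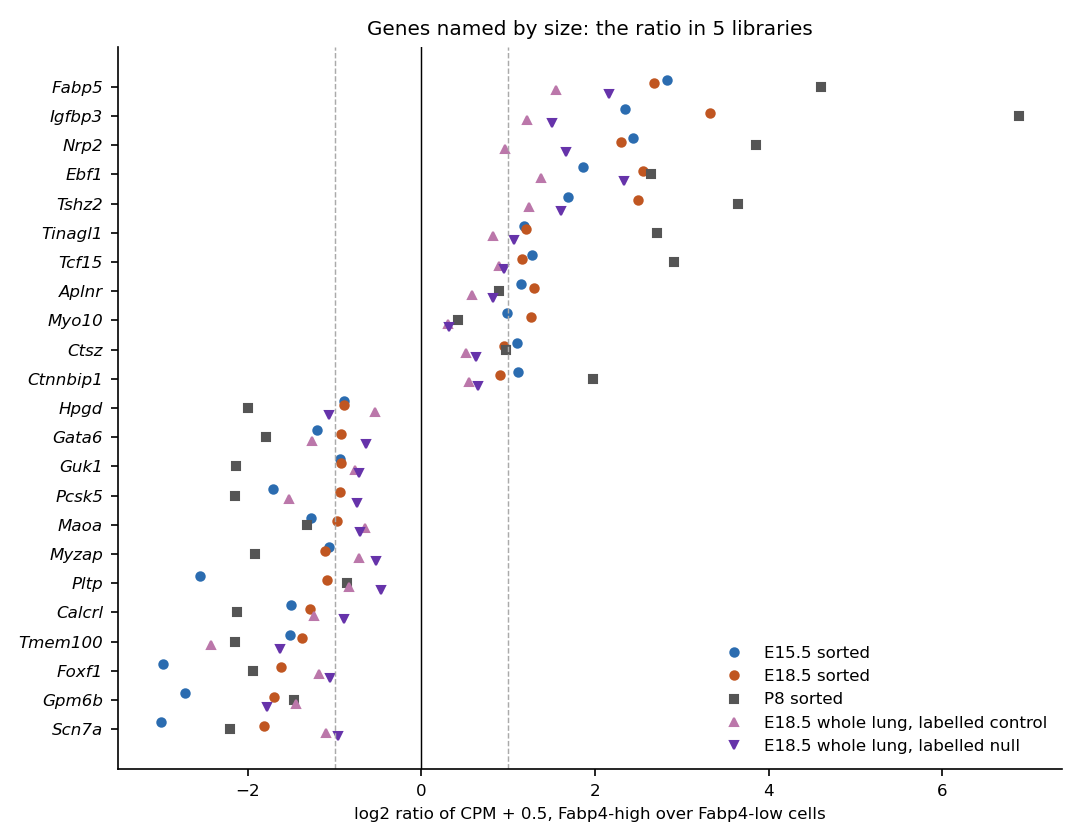
Log2 ratio of CPM + 0.5, Fabp4-high over Fabp4-low cells (x axis), for the genes named by size among those of at least 50 CPM (y axis), 1 marker for each of 5 libraries. The upper genes, from Fabp5 to Ctnnbip1, lie right of 0 and the lower genes left of 0 in each library. In the sorted E15.5 and E18.5 libraries this was set by how the genes were chosen. The whole-lung ratios tend to be smaller.

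The gene lists were chosen with earlier results of these data known. Of the 24 genes listed for lung endothelial identity, 18 were compared and none was at least 2-fold higher in both libraries. At least 2-fold lower in both were 6, against 0.422% of all 7351 genes compared. These were Foxf1, Scn7a, Tmem100, Calcrl, Tbx3 and Ace, the angiotensin-converting enzyme, which stood at 14.3 against 49.9 CPM at E15.5 and at 211 against 606 CPM at E18.5. The median log2 ratio of the 18 was −0.87 at E15.5 and −0.88 at E18.5, against −0.089 and −0.063 for all genes compared. Some members of the list did not differ in this way. Ednrb, the endothelin receptor B, stood at 74.7 against 35.7 CPM at E15.5, and Epas1, a hypoxia factor, at 169 against 170.5 CPM.

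Of 20 genes listed for heart and muscle capillaries, 16 were compared and none was at least 2-fold lower in both libraries. At least 2-fold higher in both were 3 (Meox2, Tcf15 and Btnl9), against 0.626% of all genes compared. Meox2 and Btnl9 passed the limit of 10 CPM only through the Fabp4-high cells, so the count is no support for the list. The median log2 ratio was 0.70 at E15.5 and 0.06 at E18.5. Gpihbp1, the lipase anchor, stood at 660 CPM against 120 CPM at E15.5 but at 780 CPM against 440 CPM at E18.5. Capillary-gated Fabp4-low cells had 777 CPM of Gpihbp1 at E18.5, close to the Fabp4-high level, and 224 CPM at E15.5. Lpl, the lipoprotein lipase gene, stood at 24.98 against 1.79 CPM at E15.5 and at 44.1 against 84.4 CPM at E18.5. Aqp7, the glycerol channel of fat and muscle capillaries, shares 60-base stretches of its 3′ end with other genes and is therefore uncertain. It was too low to be compared, at 4.42 CPM (2.58 to 7.08) against 0.0245 CPM at E15.5 and 7.75 CPM (5.06 to 11.4) against 0.0585 CPM at E18.5.

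Of 18 genes listed for fatty acid handling and compared, only Fabp5 was at least 2-fold higher in both libraries, against 0.626% of all genes compared. None was lower, and the median log2 ratios were 0.23 and 0.00. Pparg, the nuclear receptor that induces Fabp4 in fat, was below the limit of 10 CPM at E15.5 but stood at 13.3 against 1.70 CPM there and at 26.8 against 4.57 CPM at E18.5. The intracellular enzymes were uneven. The monoglyceride lipase gene Mgll stood at 250.3 against 66.3 CPM at E15.5 but at 338 against 339 CPM at E18.5. The acyl-CoA synthetase Acsl5 stood at 31.5 against 26.8 CPM and at 47.1 against 42.4 CPM, and Cpt1a, of mitochondrial fatty acid import, at 10.4 against 14.8 CPM and at 14.9 against 17.8 CPM.

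Genes listed for systemic vessels of airways gave 4 of 13 higher in both libraries, against 0.626% of all genes compared, and none lower. They were Col15a1, a basement membrane collagen of systemic capillaries, the matrix gene Vwa1, Ebf1 and Meox2, which is also in the heart and muscle list, and the median log2 ratios were 0.47 and 0.51. Meox2 again passed the limit of 10 CPM through the Fabp4-high cells, as did Car8 among the venous genes below. Col15a1 stood at 126 against 32.5 CPM at E15.5 and at 77.5 against 20.2 CPM at E18.5. Vwa1, whose 3′ end shares 60-base stretches with other genes and is therefore uncertain, stood at 61.2 against 18.02 and at 66.5 against 10.3 CPM. Plvap, which forms the diaphragms of fenestrae, was 267 against 284 CPM and 482 against 431 CPM. Selp, the P-selectin gene of venules, was low but stood at 4.68 against 0.233 CPM and at 6.85 against 0.332 CPM.

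Venous genes gave 4 of 9 higher in both libraries, against 0.626% of all genes compared, and none lower. Their median log2 ratios were 0.32 and 0.88. The vein identity factor Nr2f2 stood at 46.1 against 16.2 CPM at E15.5 and at 64.1 against 11.5 CPM at E18.5, beside Nrp2, Aplnr and Car8, a carbonic anhydrase-related gene. Vwf, which is abundant in veins and large vessels, was lower in Fabp4-high cells at E15.5 (42.4 against 102 CPM) and close at E18.5 (187 against 206 CPM). Prss23, also listed, stood at 31.7 against 72.9 CPM and at 100 against 78.4 CPM. A venous class, at least 2 UMIs each of Nr2f2 and Vwf, was taken after the cycling, lymphatic and arterial classes. It held no member at E15.5 and 14 (3.93%) at E18.5, against 0.0602% and 0.122% of Fabp4-low cells. Of 21 arterial genes compared, none was 2-fold higher or lower in both libraries, with median log2 ratios of −0.95 and −0.30. The gap junction gene Gja4 stood at 499 against 769 CPM at E15.5 and at 784 against 1006 CPM at E18.5. Bmx, a kinase of arterial endothelium, stood at 20.3 against 55.4 CPM and at 48.6 against 43.2 CPM. The list was not uniform, since Notch4 stood at 60.6 against 56.9 CPM at E15.5, and Eln, the elastin gene, at 119 against 856 CPM at E15.5 but at 1035 against 707 CPM at E18.5.

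Most other lists gave few calls, and over all 7351 genes 0.626% were higher and 0.422% lower in both libraries. Of 16 genes of VEGF, angiopoietin and apelin signalling, Nrp2 and Aplnr were higher and Calcrl lower in both libraries. Kdr, the main VEGF receptor, stood at 446 against 300 CPM at E15.5 and at 462 against 426 CPM at E18.5. Apln, the ligand of the apelin receptor, stood at 69.5 against 13.1 CPM at E15.5 and at 26.5 against 30.4 CPM at E18.5, so it separated the populations at the earlier age. Of 28 endothelial transcription factors, Nr2f2, Meox2 and Tcf15 were higher and none was lower, and the endothelial factor Erg stood at 17.96 against 17.7 CPM and at 39.3 against 40.8 CPM. None of 11 Notch, 18 BMP and TGF-beta and 20 cell cycle genes passed 2-fold in the same direction in both libraries. Of 11 tip-like genes, Kcne3 and Igfbp3 were higher, and of 8 aerocyte genes Emp2 was lower, at 3.12 against 18.7 CPM and at 89.99 against 203 CPM. Of 6 endocardial genes, Npr3, the natriuretic peptide clearance receptor, and Hapln1, a matrix link protein, were lower. In at least 1 library Npr3, Hapln1 and Emp2 passed the limit of 10 CPM only through the Fabp4-low cells. Kcne3 and Meox2 passed it only through the Fabp4-high cells, so these counts are no support for the lists. Apold1 and Nts, which no list held and which were named after their values were seen, had log2 ratios of 2.92 and 2.55 and of 3.18 and 3.34.

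The lists do not identify where these vessels lay. Whether the cells belonged to the lung or to heart, airway or other systemic vessels dissected with it was not tested. Markers of other tissues differed by list. None of the 15 cardiomyocyte, 8 epicardial and mesothelial, 10 immune and 9 adipocyte genes reached 10 CPM in both libraries, and the summed level of the cardiomyocyte list was 67.1 CPM at E15.5 and 22.3 CPM at E18.5, against 40.1 and 51.1 CPM in Fabp4-low cells. Its genes did not move together. At E15.5 the heart muscle genes Actc1 (10.9 against 1.51 CPM), Tnnt2 (14.6 against 3.91 CPM) and Myh7 (4.68 against 0.429 CPM) were higher in Fabp4-high cells, while Myl4 stood at 9.37 against 10.8 CPM and Myh6 had no UMI. At E18.5 Actc1 stood at 2.09 against 0.0780 CPM and Tnnc1, another heart muscle gene, at 5.07 against 23.1 CPM, and Myh7 and Myh6 had no UMI in Fabp4-high cells. The mesenchymal cells held 15.6 CPM of Actc1 and 375 CPM of Tnnt2 at E15.5. The epicardial list summed to 51.3 CPM at E15.5, of which Wt1 made up 44.5, and to 9.24 CPM at E18.5. The adipocyte list summed to 0 and 1.49 CPM, the immune list to 7.29 and 34.9 CPM and the epithelial list to 7.81 against 42.7 CPM in Fabp4-low cells at E15.5 and to 42.6 against 658 CPM at E18.5. Sftpc, a surfactant gene, stood at 11.3 against 566 CPM at E18.5. The fibroblast list summed to 301 and 349 CPM, against 8494 and 13567 CPM in the mesenchymal cells. The smooth muscle and pericyte list summed to 72.6 against 49.2 CPM in Fabp4-low cells at E15.5 and to 81.9 against 32.2 CPM at E18.5. At E15.5 Kcnj8 alone made up 54.4 against 0.944 CPM of it, while Acta2, smooth muscle actin, stood at 9.89 against 16.4 CPM and Tagln, another smooth muscle gene, at 5.204 against 25.1 CPM. At E18.5 Acta2 stood at 46.5 against 9.77 CPM. The erythroid list summed to 23.4 against 595 CPM at E15.5 and to 1085 against 1269 CPM at E18.5. The part of these other cells in the results was not tested. Both sexes contributed, as cells with Xist and no Y-linked UMI numbered 236 at E15.5 and 88 at E18.5 and cells with only Y-linked UMIs 96 and 175. Members with both kinds numbered 13 (3.43%) at E15.5 and 22 (6.18%) at E18.5, against 3.47% and 2.37% of Fabp4-low cells. Depth also differed at E18.5. At E15.5 Scrublet, which calls droplets holding more than 1 cell, called 10 members (2.64%), against 1.69% of Fabp4-low cells. With its calls removed, the share of Fabp4-high cells at E15.5 was 4.22%, and 47 genes were higher and 32 lower in both libraries. It called no cell at E18.5, so the part of such droplets was not tested there.

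Levels in groups of cells ordered by Fabp4 UMIs are given as a description, since Fabp4 set the members and these genes were picked from the same contrast. In the E15.5 library Meox2 stood at 4.4 CPM in endothelial cells with no Fabp4 UMI, 16.5 CPM at 3 to 9, 35.3 CPM at 10 to 19 and 84.2 CPM at 100 or more. At E18.5 it was 1.1, 5.9, 1.7 and 102.9 CPM in the same ranges. Foxf1 went the other way, from 97.0 to 9.2 CPM at E15.5 and from 349 to 74.97 CPM at E18.5, with its lowest values at 50 to 99 UMIs (5.5 and 61.8 CPM). Fabp5 went from 238 to 2627 CPM at E15.5 and from 135 to 1747 CPM at E18.5. Other genes peaked between the ends. Nrp2 at E18.5 was highest at 3 to 9 UMIs, at 238 CPM, and stood at 101 CPM at 50 to 99 and at 157 CPM at 100 or more. Igfbp3 at E15.5 was highest at 20 to 49 UMIs, at 541 CPM, and stood at 341 CPM at 100 or more. Cxcl12, the gene that defined the sort, went from 784 to 154 CPM at E15.5 and from 1297 to 448 CPM at E18.5. Over all Fabp4-high cells Cxcl12 stood at 241 CPM (226 to 257) against 781 CPM at E15.5 and at 706 CPM (678 to 735) against 1288 CPM at E18.5. Cells of 100 or more Fabp4 UMIs were also deeper, with a median of 11048 UMIs at E15.5 and 10394 at E18.5, against 8407 and 5395 in those with none.

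**Figure D4:**
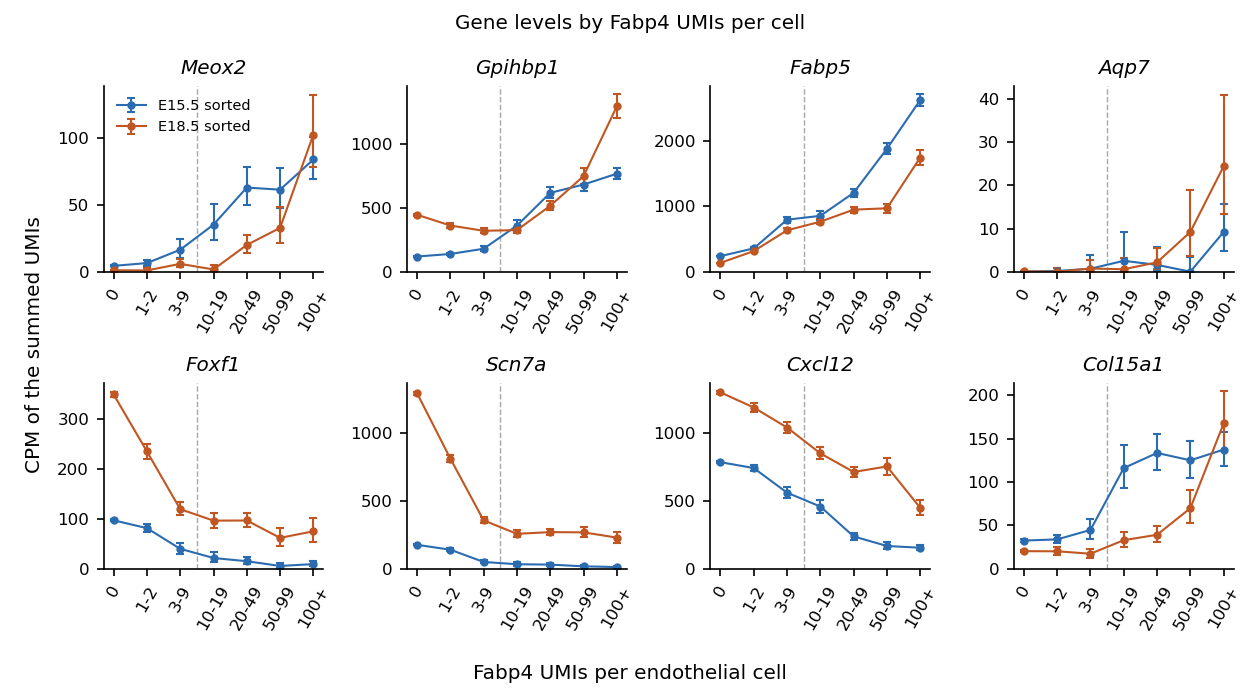
CPM of the summed UMIs (y axis, from 0) of 8 genes in endothelial cells grouped by Fabp4 UMIs per cell (x axis), at E15.5 (blue) and E18.5 (orange), with exact 95% intervals and a dashed line at the limit of 10. Meox2, Fabp5 and Col15a1 are highest in the rightmost group, while Foxf1, Scn7a and Cxcl12 are lower right of the dashed line than at 0 UMIs.

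The members were not uniform. Cells with at least 1 UMI of Meox2, Btnl9, Cd300lg, Aqp7 and Ebf3 together made up 76.0% (71.4 to 80.2) of members at E15.5 and 48.0% (42.7 to 53.4) at E18.5, against 6.04% and 4.15% of Fabp4-low cells. This and the next 2 splits were chosen after the values were seen, from genes of the same contrast, and are given only as a description. With each cell thinned to 2000 UMIs the shares were 32.7% and 23.6%, against 1.16% and 1.41%. Cells with at least 5 UMIs of the artery-wall genes Mgp, Cytl1, Fbln2 and Eln made up 6.60% of members at E15.5 and 35.7% at E18.5, against 20.7% and 11.6% of Fabp4-low cells. Cells with at least 2 UMIs of Foxf1, Scn7a, Ace and Calcrl made up 22.7% of members at E15.5 and 77.5% at E18.5, against 80.3% and 98.4%. In the whole lungs they made up 86.9% of Fabp4-high cells in the library labelled control and 89.96% in that labelled null. The Fabp4-low cells there stood at 97.8% and 98.9%. At P8 they made up 61.9% of the 21 Fabp4-high cells, against 99.7% of Fabp4-low cells. The low share at E15.5 was therefore not seen in the other libraries.

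The split on Meox2, Btnl9, Cd300lg, Aqp7 and Ebf3 is called systemic as a label only, since the origin of the cells was not tested. Of these genes Cd300lg was on no list and Aqp7 is uncertain. At E18.5 the systemic and artery-wall splits together gave 4 subsets. The 123 cells with the systemic genes and without the artery-wall genes had the most Gpihbp1, at 1286 CPM, with Foxf1 at 75.5 CPM. The 79 cells with artery-wall genes alone had Gpihbp1 at 150 CPM, Fabp4 at 2807 CPM, Cxcl12 at 1031 CPM and Vwf at 508 CPM. A further 106 cells had neither set and the most Scn7a and Foxf1, at 658 and 173 CPM, whereas Calcrl was highest in the artery-wall subset, at 485 against 411 CPM. Cells with at least 2 UMIs of the 4 lung genes made up 87.7% of those 106, 91.1% of the artery-wall subset, 63.4% of the systemic subset and 68.8% of the cells with both. The remaining 48 had both, and Igfbp3 was highest there, at 995 CPM. At E15.5 the systemic set alone covered 268 cells (70.7%) and the artery-wall set alone only 5. Among those 268 cells Gpihbp1 stood at 692 CPM, Foxf1 at 9.8 CPM and Cxcl12 at 222 CPM. The label of capillary was met only in part, since 148 members (39.1%) at E15.5 and 180 (50.6%) at E18.5 fell in an arterial class, set by 3 or more UMIs of Gja4, Gja5, Gkn3 and Bmx among cells not already classed as cycling or lymphatic. The same class held 56.9% and 56.3% of Fabp4-low cells, and the cycling class, taken first, held 28.0% and 13.8% of members against 31.7% and 7.16%. These classes rest on unthinned UMIs, and depth differed at E18.5. There the cell cycle genes Mki67 and Top2a stood at 54.8 against 42.9 CPM and at 89.4 against 70.8 CPM. Capillary-gated cells made up 28.8% of members at E15.5 and 20.8% at E18.5, against 10.3% and 25.1% of Fabp4-low cells. As members fell in several classes, the cells are called Fabp4-high rather than capillary.

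**Figure D5:**
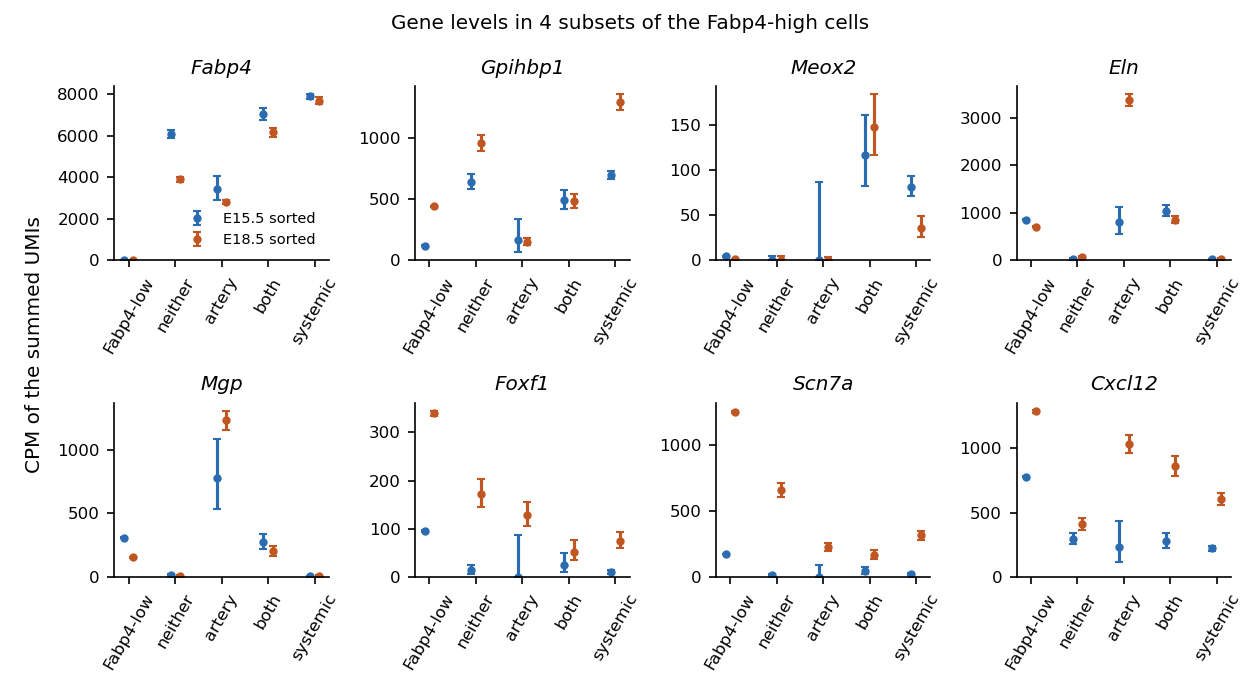
CPM of the summed UMIs (y axis, from 0) of 8 genes in Fabp4-low cells and in 4 subsets of Fabp4-high cells (x axis: neither gene set, artery-wall genes only, both, systemic genes only), with exact 95% intervals. At E18.5 (orange) Gpihbp1 is highest in the systemic subset and Eln and Mgp in the artery subset, which at E15.5 (blue) holds only 5 cells. Eln, Mgp and Meox2 are among the genes that set the splits, so their panels only describe the splits.

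With the genes of the rule left out of a 25-component map of each library, the 20 nearest neighbours of a Fabp4-high cell were Fabp4-high in 64.3% of cases on average at E15.5 and 39.8% at E18.5. The Fabp4-high share of all cells mapped was 4.25% and 3.92%, and the neighbours of Fabp4-low cells were Fabp4-high in 0.404% and 1.10% of cases. Cells past the Fabp4 limit but with none of Cd36, Rbp7 and Timp4 had 46.1% and 12.8% such neighbours. Across 7351 genes within each library the summed profile correlated most with that of capillary-gated Fabp4-low cells at E15.5 (Pearson's r = 0.952). At E18.5 it correlated most with that of arterial-gated Fabp4-low cells (r = 0.945). The next were cycling cells at E15.5 (r = 0.950) and capillary-gated cells at E18.5 (r = 0.928). Genes are not independent replicates, and the populations compared come from the same library.

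The called genes were followed in the other libraries with no filter on their level there, a choice made after seeing the data. Of the 46 higher genes, 45 were higher in the 21 Fabp4-high cells at P8, 40 of them at least 2-fold, where 5.54% of all genes averaging 10 CPM were 2-fold higher and 9.43% lower. At P8, Igfbp3 stood at 314 CPM in 21 Fabp4-high cells against 2.16 CPM, and Aqp7 at 75.2 against 0.0328 CPM. In the whole lungs, 34 were higher in the library labelled control and 42 in that labelled null, and 11 and 19 reached 2-fold. Of all genes averaging 10 CPM there, 0.631% and 0.578% were 2-fold higher and 1.31% and 1.18% lower. Of the 31 lower genes, 30 were lower in each of the 3 libraries, by at least 2-fold in 27 at P8, 12 in the library labelled control and 11 in that labelled null. Over both sorted and both whole-lung libraries, 8 genes (0.112%) were 2-fold higher throughout and 7 (0.0979%) lower. Meox2 separated the populations far less in the whole lungs, at 6.38 against 5.35 CPM and 9.72 against 2.56 CPM, while Fabp5 stood at 1549 against 529 CPM and 1399 against 312 CPM.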

How the data were processed

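The authors made 3′ libraries (10x v3), aligned them to mm10 with Cell Ranger and deposited raw UMI counts for each gene in each barcode. The submitters' processing notes name Cell Ranger 3.1 and Seurat 3.2.2, and the file headers name 3.0.2 for the E15.5, E18.5 and P8 libraries. The authors also deposited whole-lung expected counts adjusted with SoupX, which were not used here. Cells with at least 700 genes and 0.5% to 10% mitochondrial UMIs were kept, as in the methods of the study. UMIs were summed per population as CPM, and log2 ratios were taken after adding 0.5 CPM. A gene was called at 2-fold or more, with no p-value, since each condition had 1 library. Gene positions came from GENCODE M21 (GRCm38). The members and gene lists were chosen with earlier results of these data known. Genes named by size were the 12 highest and the 12 lowest by the weaker ratio among genes of at least 50 CPM, without mitochondrial, ribosomal protein, haemoglobin and sex genes, and 1 of them is not reported here. Ccl21a, Hoxd4 and Aldoa, which each have 2 features, and Zfp385d, which is listed under no such name, were left out of list counts. Aqp7, Cpt1a, Vwa1, Hbb-bs, Ifi203, Serpina3g and Gstm1 share 60-base stretches of their 3′ ends with other genes and are uncertain. Doublets were left in, and calls came from scanpy 1.11.5 (Scrublet). Scripts were tested on simulated data. Alternatives varied the limits on members, the comparison cells, the filter on low values and the pseudocount.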

Additional observations from a re-analysis of the deposited data

Results flagged for a closer look

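Among the 7351 genes compared, 14 were past 2-fold in opposite directions at the 2 ages, and the difference between the ages was not tested, since each age had 1 library. The values are the log2 ratio at E18.5 minus that at E15.5. Lower in Fabp4-high cells at E15.5 and higher at E18.5 were 12 genes, with Cytl1 at 5.06, Mgp at 4.25, Sost at 3.36, Tagln at 3.32, Dkk2 at 3.09, Fbln2 at 2.88, Pi16 at 2.79, Efr3b at 2.65, Mfap5 at 2.55, Lmo1 at 2.504, Ptprr at 2.37 and Myl9 at 2.24. Mgp, an inhibitor of calcification in artery walls, stood at 37.0 against 308 CPM at E15.5 and at 354 against 153 CPM at E18.5. Higher at E15.5 and lower at E18.5 were Adm, the adrenomedullin gene, with a difference of −3.46, and Sept4, with −2.89.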

How the results depend on the processing

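Depth limits single genes to sums over cells, and each condition had 1 library. There were thus no replicate libraries to pair. Scrublet called 3.59% of kept cells at E15.5 but none of 9542 at E18.5 or 8451 at P8, so it had not worked there. The share at E15.5 and E18.5 was 3.60% and 2.73% with at least 20 Fabp4 UMIs, 2.28% and 1.23% with 50, 5.21% and 5.91% without the condition on Cd36, Rbp7 and Timp4, and 2.83% and 2.61% with 3 of their UMIs. In the libraries labelled control and null it was 11.8% and 6.58% with 20 Fabp4 UMIs, 6.30% and 3.79% with 50, and 13.05% and 7.50% with 3 UMIs of Cd36, Rbp7 and Timp4, and in that labelled null 7.68% after thinning. The counts of higher and lower genes were 109 and 49 against capillary-gated cells, 9 and 7 from 50 CPM, 200 and 146 with no filter, and 70 and 88 without arterial-gated members, the last chosen after seeing the data like the next 2. With 50 Fabp4 UMIs 84 genes were lower and without members rich in artery-wall genes 80, and with a pseudocount of 5 CPM 20 were lower. The cause was not tested, except that the 50 CPM limit leaves 2660 genes to compare. Of 3060 ratios of 85 genes under 18 settings, 2344 lay within their counting interval and 713 outside it with no called ratio changing sign. The other 3 changed sign. They were Gata6 at E15.5 (0.29) and Sfrp2 at E18.5 (2.31) against capillary-gated cells, and Smtnl2 at E18.5 (−0.79) without members rich in artery-wall genes. The 50 CPM limit and the setting with no filter change only which genes are compared and could not alter a ratio. Each of them adds 165 to the 2344 and 5 to the 713. Those 5 lay outside without moving, because the interval leaves out the added 0.5 CPM.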

Other observations

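The following listed genes separated Fabp4-high cells at 1 age or below the limit of 10 CPM. Kcnj8, a potassium channel subunit of pericytes, stood at 54.4 CPM (47.3 to 62.3) against 0.944 CPM in Fabp4-low cells at E15.5, but at 0.596 against 2.48 CPM at E18.5. Wt1, a factor of mesothelium and of some growing vessels, stood at 44.5 CPM (38.1 to 51.7) against 4.72 CPM at E15.5 and at 8.05 against 1.58 CPM at E18.5, while the mesothelial genes Upk3b and Msln had no UMI in Fabp4-high cells at either age. Hoxd8, a positional gene, stood at 13.01 against 2.23 CPM, at 14.0 against 0.917 CPM and, at P8, at 30.8 against 0.197 CPM. Hoxa5, another positional gene of lung and foregut, stood at 29.4 against 157 CPM at E15.5 and at 135 against 187 CPM at E18.5.

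Of 13 basement membrane genes compared, Col15a1 was the only one at least 2-fold higher in both libraries, against 0.626% of all genes compared. The list medians were 0.80 and 0.45. Hspg2, the perlecan gene, stood at 368 against 215 CPM at E15.5 and at 276 against 106 CPM at E18.5. The haemoglobin gene Hbb-bs, a gene of red cells, stood at 11.7 against 326 CPM at E15.5 and at 685 against 762 CPM at E18.5. Whether it was free RNA, and its part in the results, were not tested.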
